A study of Mus musculus with 7 samples.

Results

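The chromatin around 10 genes of the bone morphogenetic protein (BMP) system was examined in freshly isolated muscle stem cells (MuSCs). The genes were the ligands Bmp2, Bmp4, Bmp6 and Bmp7, the receptors Bmpr1a and Bmpr2, and the antagonists Chrdl2, Chrd, Nog and Fst. They were picked by name for their role, with earlier results of these data known, from 21436 protein-coding genes with a known start. For each gene, every peak that overlapped its RefSeq span on mm10 (GRCm38), widened by 10 kb on each side, was taken from all 7 libraries. Merging the peaks of the libraries where they overlapped gave 73 regions at these loci, of 95163 regions in the genome.

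The study asked whether loss of Nedd4L, an E3 ubiquitin ligase, changes chromatin accessibility in MuSCs. ATAC-seq, which maps open chromatin by letting the Tn5 transposase cut it, was run on 4 Nedd4L-cKO and 3 WT libraries, each from 5000 sorted MuSCs of the hindlimb of 1 male mouse aged 5 to 6 weeks. Per the study's methods, Nedd4L-cKO mice are Nedd4L fl/fl with a Pax7-driven Cre, which removes an exon coding for part of the catalytic domain in MuSCs and in the cells that descend from them, while the gene is still transcribed. The labels give the genotype of the controls, called WT here, as Nedd4L-WT and do not say whether they carry Cre. Cells were sorted as ITGA7+ and Hoechst+ and as negative for CD31, CD45, CD11b and SCA1. In such bulk libraries, more cells that are open at a site and more openness per cell cannot be told apart.

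BMP ligands are secreted dimers of the TGF-beta superfamily. They bind a complex of type I receptors, such as the Bmpr1a product, and type II receptors, such as the Bmpr2 product, and the type I kinase then phosphorylates SMAD1, SMAD5 and SMAD9, which induce genes such as Id1. Chordin, chordin-like 2 and noggin bind BMP ligands outside the cell and keep them from their receptors, and follistatin does so mainly for activins and, less tightly, for some BMPs. In muscle, BMP signalling is known to favour proliferation of MuSCs and their descendants over differentiation.

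The authors' peak calling treated every library separately. After removal of duplicate positions the libraries held 14429374 to 20084685 tags and gave 69302 to 79158 peaks, which covered 62.0 to 73.6 Mb. The promoters, here the start of the gene ± 1 kb, of 8 of 8 MuSC markers, among them Pax7, Myf5, Itga7 and Calcr, held a peak in all 7 libraries. No promoter of the 4 blood cell markers Ptprc, Itgam, Cd68 and Csf1r held a peak in any library. Of the 4 endothelial markers Kdr and Tek were called in all 7 libraries, and Pecam1 and Cdh5 in none. Of the 4 fibro-adipogenic markers Cd34 and Dpt were called in all 7 libraries, and Pdgfra and Ly6a in none. The part of other cells in the values below was not tested. WT replicate 3 is the only library whose header names lane 2, so a value without it is also a value within lane 1.

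All 10 promoters held a peak in all 4 Nedd4L-cKO and all 3 WT libraries, where 59.7% of all promoters did. With only peaks at a -log10 q of at least 5, 4 of the 10 did. The share of all promoters at that limit is not given here. Of the 73 regions at the 10 loci, 38 (52.1%) were called in all 7 libraries, 20 in 2 to 6 of them and 15 in only 1. Over the genome 56.0% of the merged regions were called in all 7 libraries. The loci differed in layout. Bmp6 held 23 regions, Bmpr1a 13, Bmp7 11 and Chrdl2 8, whereas Bmpr2, over a span of 114.0 kb, held 4, and Bmp2, Bmp4, Chrd and Nog held 3 each and Fst 2.

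**Figure D1:**
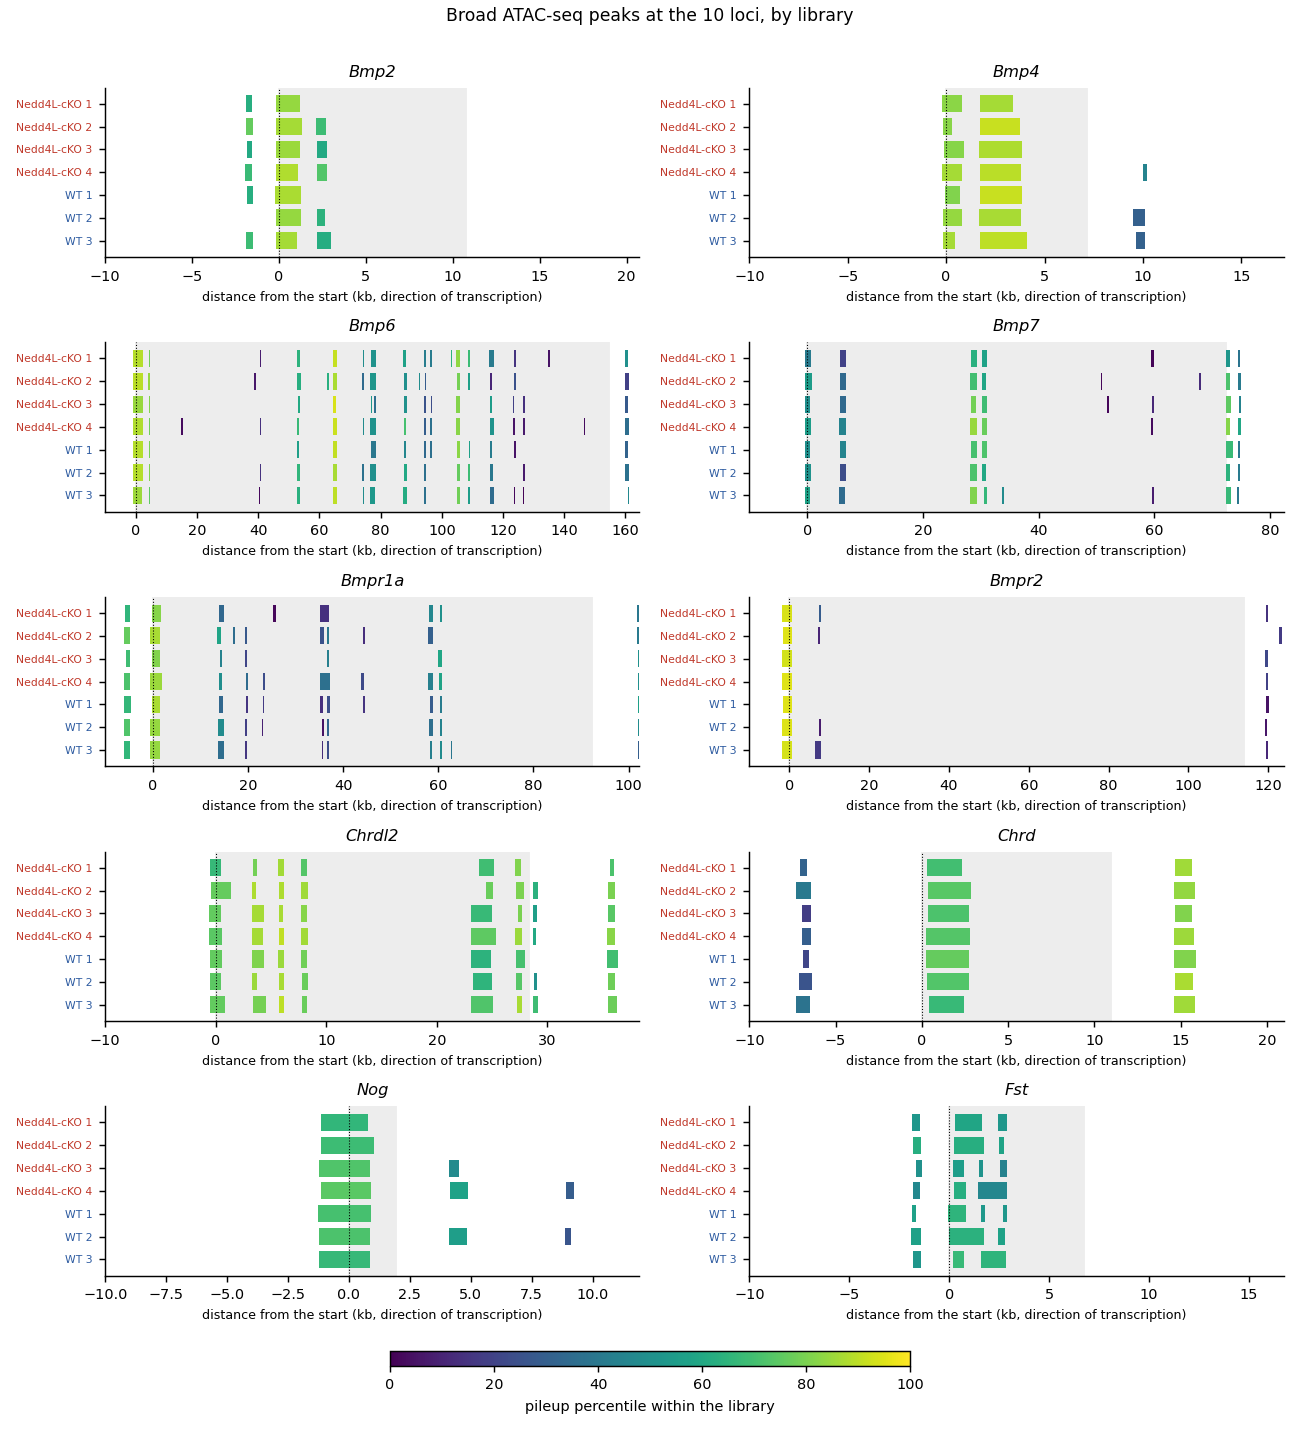
Broad peaks at each locus, 1 row per library (Nedd4L-cKO in red, WT in blue), against the distance from the gene's start in kb. The grey band is the gene's span, and the colour is the pileup percentile within the library. A bar within 1 kb of the start is present in all 7 rows of every panel. At Chrd in every row, and at Fst in most rows, this bar begins after the start.

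2 values describe each peak. The pileup is the mean number of extended tags over a base of the peak, and the fold enrichment is that pileup over the background which the caller took from the same library, genome-wide or over the surrounding 10000 bp, whichever was higher. Neither is scaled to the depth of the library, so each was turned into a percentile among all peaks of its library, where 0 is the lowest peak and 100 the highest. A site inside a widely accessible stretch can therefore hold many tags and still rank low by fold.

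By median pileup percentile the promoters formed an order in which most neighbours overlapped. Bmpr2 was highest with a median of 94.8 over the 7 libraries (range 93.1 to 95.2), above Bmp6 with 88.7 (84.6 to 89.5). Bmp2 (86.4), Bmpr1a (84.3) and Bmp4 (82.7, 80.9 to 86.7) followed, and their ranges overlapped from each gene to the next. Below a gap came Chrdl2 with 75.8 (66.8 to 76.2), Chrd with 73.0, Nog with 70.7, Fst with 62.8 and Bmp7 with 51.1 (41.2 to 57.6), where the ranges of neighbours again overlapped. Hence Bmpr2 and Bmp6, and Bmp4 and Chrdl2, were the only neighbours whose ranges did not meet.

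By fold percentile the order was another one. The Bmp7 promoter was first with a median of 79.3 (66.8 to 83.7), and its range lay above that of Bmp2, the second with 54.7 (43.8 to 61.9). Bmpr2 (52.0), Bmpr1a (46.4), Chrd (34.0), Nog (30.0) and Fst (17.5) followed with overlapping ranges. At the lower end lay Chrdl2 with 4.15 (1.7 to 14.3), Bmp4 with 2.99 (1.06 to 5.28) and Bmp6 with 2.39 (1.79 to 3.46). For comparison, the 11802 promoter regions called in all libraries had a median fold percentile of 78.2 and a median pileup percentile of 85.6. Thus 9 of the 10 promoters ranked below the median promoter by fold and all but 3 (Bmp2, Bmp6 and Bmpr2) by pileup.

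**Figure D2:**
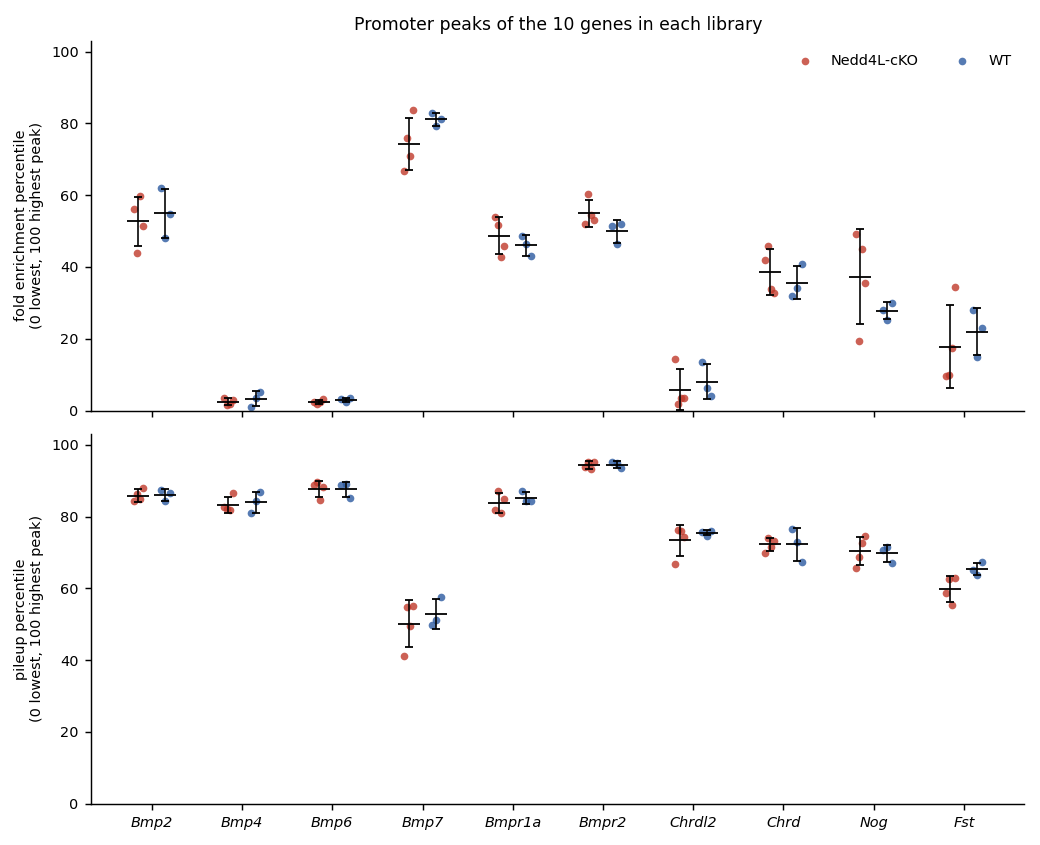
Fold enrichment percentile (top) and pileup percentile (bottom) of the promoter peak of each gene, with a point per library, the mean as a black line and the SD as an error bar, for 4 Nedd4L-cKO and 3 WT libraries. Bmp4, Bmp6 and Chrdl2 lie near 0 by fold but at 66.8 or more by pileup, and the points of the genotypes overlap in every pair except the pileup of Fst.

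The sequences just before the start are shown for the 3 genes whose start in RefSeq's table of promoters (GRCm38.p6) is the outer end of their span, since they cover the highest pileup (Bmpr2) and the lowest fold (Bmp6 and Bmp4). Each is the 250 bases before the start, 5′ to 3′ on the gene's strand, with CG dinucleotides in capitals. The first is chr1:59764029-59764278 (plus strand), the second chr13:38345466-38345715 (plus strand) and the last chr14:46390670-46390919 (minus strand).
Bmpr2: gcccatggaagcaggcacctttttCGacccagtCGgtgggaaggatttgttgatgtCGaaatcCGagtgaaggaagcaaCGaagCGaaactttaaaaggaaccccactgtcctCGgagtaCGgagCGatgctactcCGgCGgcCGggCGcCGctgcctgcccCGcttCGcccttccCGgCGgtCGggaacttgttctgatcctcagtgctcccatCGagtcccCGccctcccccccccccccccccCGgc
Bmp6: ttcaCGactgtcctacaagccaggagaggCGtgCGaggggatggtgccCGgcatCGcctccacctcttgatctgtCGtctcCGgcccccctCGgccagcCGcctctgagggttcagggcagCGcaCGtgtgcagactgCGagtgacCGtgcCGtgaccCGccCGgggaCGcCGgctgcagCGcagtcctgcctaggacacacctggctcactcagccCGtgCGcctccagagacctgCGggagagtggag
Bmp4: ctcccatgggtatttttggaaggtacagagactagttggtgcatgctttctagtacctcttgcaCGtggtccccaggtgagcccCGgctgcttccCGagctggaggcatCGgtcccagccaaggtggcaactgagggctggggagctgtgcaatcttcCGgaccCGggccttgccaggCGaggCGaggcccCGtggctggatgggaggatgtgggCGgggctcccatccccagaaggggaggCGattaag

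The Bmpr2 and Bmp6 windows each held 22 CG dinucleotides and lay wholly inside the promoter peak in all 7 libraries. The Bmp4 window held 11, and only 49 to 213 of its 250 bases lay inside the peak, which extended into the gene instead. The table also gave windows for Bmpr1a, with 36 CG dinucleotides, and Chrd, with 28, at starts that lie 790 and 1702 bp inside the outer end of the span. Over all 32851 windows of the table the median was 6. The letters GGCGCC, searched on both strands as were the others, stood once each in the windows of Bmpr2 (105 bp before the start), Bmpr1a and Chrd, and in 9.59% of all windows. The E-box letters CAGCTG (13.0% of all windows), the letters TATAAA (12.4%) and TAAT and ATTA with 2 bases between them (0.384%) were in none of these 5 windows. The promoter table gave no window for Bmp2, Bmp7, Chrdl2, Nog and Fst.

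Among the ligands, Bmp6 (chr13:38345716-38500314, plus strand) had the most regions, in the longest window of the 10 (175 kb). Peaks covered 7.64% of that window on average, against 11.5% at Bmp4, 6.86% at Bmp2 and 6.1% at Bmp7. Bmp6 codes for a ligand best known for inducing hepcidin in the liver. Its promoter region of 3132 bp ran from -830 to 2301 bp relative to the start, and was the longest of the 10, the median over all shared promoter regions being 1542 bp. The promoter pileup was 41, 39.1, 36 and 45.5 tags in the Nedd4L-cKO libraries and 43.0, 43.0 and 34.6 in the WT libraries. Its fold was only 2.28 to 2.5 in the 7 libraries. The genotypes overlapped in both.

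Of the 23 Bmp6 regions, 10 were called in all 7 libraries, and 7 were seen in a single library, 2 in Nedd4L-cKO replicate 1, 3 in replicate 2 and 2 in replicate 4, and none of them in a WT library. Over the genome, 67.1% of the 14010 regions seen in a single library came from the 4 Nedd4L-cKO libraries, and these 7 calls were not tested for a difference between genotypes. The most accessible site outside the promoter lay 65.05 kb into the gene (chr13:38410193-38411341). There the fold percentile was 91.0, 72.7, 95.9 and 88.7 in Nedd4L-cKO and 88.0, 84.0 and 89.2 in WT, and the median pileup percentile was 91.0. So this site inside the gene ranked far above the Bmp6 promoter by fold and about level with it by pileup. A further site at 105.4 kb had medians of 63.8 by fold and 81.6 by pileup. By contrast, a short region at 4.284 kb had a fold percentile of 0.525 with a pileup percentile of 79.3. The shared region beyond the 3′ end, at 160.6 kb, lies in the span of Txndc5 as well.

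Bmp4 (chr14:46383525-46390669, minus strand) codes for a ligand of early mesoderm and of many organs. It was marked by 2 shared regions. The promoter region (1123 bp) had pileups of 33.9, 31.0, 33.1 and 43.5 in Nedd4L-cKO and 34.3, 37.4 and 36.2 in WT. The larger one lay 2.892 kb into the gene (chr14:46386571-46388984, 2414 bp), where the start of the predicted gene Gm15222 also lies, and had medians of 5.82 by fold and 89.8 by pileup. Both thus combined many tags with a low fold. The third region, near the downstream edge of the window and at the start of Gm15217, was called in 1 Nedd4L-cKO and 2 WT libraries.

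Bmp2 (chr2:133552159-133562896, plus strand), a close relative of Bmp4 and an inducer of bone, had a promoter peak of 1210 to 1480 bp. Its fold was 3.92, 3.47, 3.89 and 3.59 in Nedd4L-cKO and 4.02, 3.66 and 3.91 in WT, with overlapping groups. The flanking regions at -1.745 and 2.568 kb from the start were called in 6 and 5 libraries, with median fold percentiles of 1.30 and 0.959 and pileup percentiles of 65.3 and 64.3.

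Bmp7 (chr2:172868012-172940321, minus strand), known for its role in kidney and eye development, stood apart from the other ligands. Its promoter had the lowest pileup of the 10 genes, with 12.1, 15.2, 15.4 and 18.8 tags in Nedd4L-cKO and 15.9, 16.3 and 16.7 in WT. It also had the highest fold, 4.29, 4.44, 4.25 and 4.83 against 4.85, 4.70 and 4.97. The ratio of pileup to fold, an approximate local background, was 3.42 tags in the median library there, against 14.5 at the Bmp4 and 17.3 at the Bmp6 promoter. The promoter peak also covers the start of Gm40010, so its values cannot be given to Bmp7 alone. Some distal sites ranked near or above the promoter. A region just past the 3′ end (chr2:172866732-172868004) had a median fold percentile of 76.5, and a region 28.75 kb into the gene had a median pileup percentile of 71.8.

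The receptor loci differed from each other. Bmpr2 (chr1:59764279-59878081, plus strand), whose product is the main type II receptor for BMPs, was open almost only at its promoter. That region (chr1:59762467-59764922, 2456 bp) reached from -1812 to 643 bp relative to the start and had pileups of 48.8, 47.9, 46.6 and 57.8 tags in Nedd4L-cKO and 53.5, 52.3 and 45.0 in WT. The groups overlapped. The other 3 regions were weak. They had median pileup percentiles of 13.7 at 7.194 kb, 12.8 at 119.7 kb and 17.5 at 123.0 kb, and were called in 4, 6 and 1 of the libraries. The last 2 lie downstream of the gene, so from the region at 7.194 kb to its 3′ end the gene held no peak in any library.

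Bmpr1a (chr14:34411061-34503336, minus strand), which codes for the type I receptor ALK3, held 13 regions, of which 5 were shared by all libraries. Its promoter pileup was 33.0, 36.1, 32.6 and 41.5 tags in Nedd4L-cKO and 41.2, 37.5 and 33.6 in WT. The strongest region outside the promoter by either measure lay upstream at -5.293 kb (chr14:34507925-34509333), with medians of 70.3 by fold and 69.0 by pileup. Most of the sites inside the gene were called in some libraries only, and 3 were called in a single one. The farthest region, at 102.0 kb, also lies in Mmrn2.

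Chrdl2 (chr7:100006404-100034728, plus strand) was the antagonist with the most regions. Of its 8 regions, 7 were called in every library, the highest share of shared regions among the 4 loci with more than 4 regions. Peaks covered 4.74, 5.56, 6.36 and 7.0 kb of its window of 48.3 kb in Nedd4L-cKO and 6.81, 5.64 and 7.06 kb in WT. The groups overlapped. On average that was 12.8% of the window, which is percentile 90.2 among all genes, whose median was 4.53%. This share was not particular to Chrdl2. It was 13.3% at Chrd (percentile 91.2), 11.5% at Bmp4 (86.8) and 11.1% at Nog (85.5), and lower at the other members.

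The Chrdl2 promoter peak was weak by fold in all libraries and yet well covered. Its fold was 2.88, 2.27, 2.44 and 2.35 in Nedd4L-cKO and 2.84, 2.59 and 2.56 in WT. The pileup was 21.8, 25.9, 28.3 and 30.5 tags against 29.6, 28.6 and 26.6. Nedd4L-cKO replicate 1 had the highest fold and the lowest pileup of the 7, and the genotypes overlapped in both values. Inside the gene, a series of regions at 3.904, 5.897 and 8.002 kb (chr7:100009678-100010937, chr7:100012029-100012573 and chr7:100014076-100014736) exceeded the promoter by pileup, with median percentiles of 85.0, 86.9 and 78.2. Their fold percentiles were 1.73, 24.1 and 9.75. The region with the highest fold at this locus lay at 27.52 kb, near the 3′ end, with a fold percentile of 41.5 and a pileup percentile of 80.2.

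Chrd (chr16:20731425-20742384, plus strand), the gene of chordin, the founding member of the family, had 3 regions, all shared. The promoter region (2615 bp) began 225 bp after the outer start and had pileups of 23.6, 24.4, 25.3 and 29.6 in Nedd4L-cKO and 30.2, 27.4 and 21.1 in WT. It also covers the start of Thpo, so its peak cannot be given to Chrd alone. The region with the highest fold percentile of all 38 lay 15.24 kb from the start, downstream of the gene (chr16:20746020-20747317). Its fold percentile was 96.7, 92.4, 94.4 and 94.9 in Nedd4L-cKO and 90.1, 97.0 and 94.4 in WT. The start of the small RNA gene Gm22741 falls there as well.

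Nog (chr11:89300638-89302559, minus strand), the gene of noggin, had 1 shared region, of 2294 bp around its start, with pileups of 21.2, 21.0, 25.9 and 30.6 tags in Nedd4L-cKO and 25.9, 26.3 and 20.8 in WT. The 2 regions downstream were called in 3 and 2 libraries, of both genotypes, with medians of 4.38 and 39.7 by fold and 55.5 and 27.8 by pileup. Fst (chr13:114452262-114458989, minus strand), the gene of follistatin, had a promoter region of 2958 bp that was broken into separate peaks in each library, and a second region at -1.613 kb with medians of 4.69 by fold and 52.8 by pileup. Gm41074 overlaps both Fst regions. The Fst promoter pileup percentile was 58.8, 62.7, 55.3 and 62.8 in Nedd4L-cKO and 65.2, 63.8 and 67.3 in WT. All 3 WT libraries therefore lay above the 4 Nedd4L-cKO libraries, by 1 percentile point at the nearest pair. The pileups themselves, which are not scaled to depth, overlapped (17.3 to 22.6 against 21.0 to 22.5). They did so only through Nedd4L-cKO replicate 4 (22.6), the library with the most tags.

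Low fold with high pileup recurred at 3 of the 10 loci. Of the 38 shared regions, 9 (23.7%) had a median fold percentile under 25 and a median pileup percentile over 75, against 4.81% of all 53245 shared regions and 5.63% of the shared promoter regions. They were 5 of the 7 shared regions of Chrdl2 and both of Bmp4, together with the promoter and the 4.284 kb region of Bmp6. These limits were chosen after the values were seen, so the counts are a description with no test. The Chrdl2 promoter (75.8 by pileup) and its 5.897 kb region (24.1 by fold) lay just inside them, and the 24.20 kb region of Chrdl2 (7.32 by fold, 69.3 by pileup) just outside. At the 9 regions the ratio of pileup to fold was 11 to 17.3 tags in the median library, against a median of 3.52 to 4.41 over all peaks of a library. A high ratio follows from the limits that picked these regions, so it is not a separate trait of them. The count was 9 from the Nedd4L-cKO libraries alone and 8 from the WT libraries alone. The trait was not limited to these loci. It was also met by 6 of the 8 MuSC marker promoters (Pax7, Myf5, Itga7, Vcam1, Cdh15 and Sdc4) and by 9 of the 29 promoters of further BMP pathway genes that were called in all libraries (Gdf6, Rgma, Rgmb, Smad6, Id1, Id2, Id3, Nbl1 and Fstl3), beside 3 of the 10 promoters described here.

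**Figure D3:**
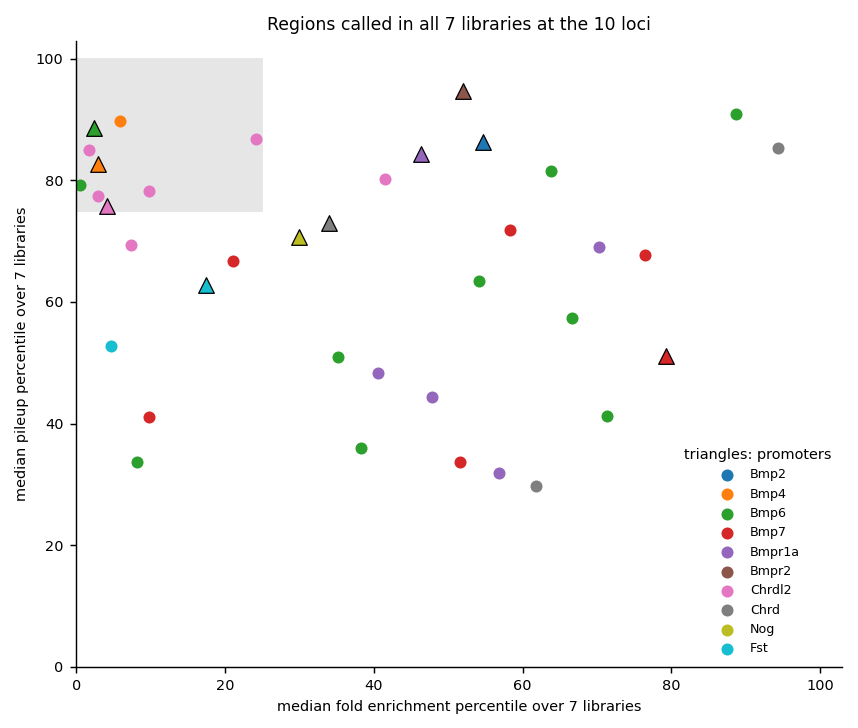
Median fold enrichment percentile against median pileup percentile over 7 libraries for the 38 regions called in all of them, with a colour per gene and triangles for promoters. The shaded corner (fold under 25, pileup over 75) holds 9 regions, 5 of Chrdl2, 2 of Bmp4 and 2 of Bmp6.

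The genotypes were compared at the 38 shared regions with limma, on within-library ranks turned into normal scores. In these, 1 unit is 1 SD of the scores. The ranks are among the shared regions only, whereas the percentiles are among all peaks of a library. The fit ran over all 53245 shared regions, and no region passed an adjusted p of 0.05 by fold (0 of 38, 0.0% over all regions) or by pileup (0 of 38, 0.0% over all regions). At an unadjusted p under 0.05, 0 of the 38 passed by fold, where 3.98% of all regions did, and 0 by pileup, where 2.71% did. The fold percentiles of the genotypes did not overlap in 0 of the 38 (4.96% of all regions), and the pileup percentiles in 1 (2.63%, against 3.23% of all regions), the Fst promoter. Its pileup rank differed by -0.17 ± 0.0893 (SE) between Nedd4L-cKO and WT, with an adjusted p of 1.0 by limma.

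By fold, 22 of the 38 regions had a higher estimate in Nedd4L-cKO and 16 a lower one, with a median difference of 0.049 against 0.015 over all shared regions. By pileup the numbers were 21 and 17, with medians of 0.020 and -0.001. The 19 ligand regions ranged from -0.46 to 0.25 by fold, the 6 receptor regions from 0.06 to 0.52 and the 13 antagonist regions from -0.27 to 0.25, with a median SE of 0.23 over the 38. The adjusted p was 1.0 for each of the 38 regions by either measure.

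Ordered by unadjusted p, the first regions with higher fold in Nedd4L-cKO were at Bmpr1a. Its region 14.18 kb into the gene (chr14:34488378-34489936) had fold percentiles of 41, 66.2, 54.8 and 60.7 in Nedd4L-cKO and 24.3, 47.8 and 39.3 in WT. The groups overlapped through Nedd4L-cKO replicate 1, and the difference was 0.52 ± 0.231 (SE, unadjusted p = 0.0512, adjusted p = 1.0 by limma). It was 0.34 without WT replicate 1. The upstream region at -5.293 kb of Bmpr1a had percentiles of 81, 77.8, 70.3 and 69.9 against 51.6, 74.4 and 54.6, a difference of 0.45 ± 0.229 (unadjusted p = 0.0801, adjusted p = 1.0 by limma). Here WT replicate 2 lay among the Nedd4L-cKO values. The next p belonged to the region past the 3′ end of Bmp7, which differed by 0.25 ± 0.231 and by 0.44 without Nedd4L-cKO replicate 1 or 0.16 without replicate 4. The Nog promoter had the same estimate (0.25 ± 0.233).

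In the other direction, also by unadjusted p, the region in Txndc5 downstream of Bmp6 (chr13:38505593-38506943) differed by -0.46 ± 0.296. Its fold percentiles were 38.3, 35.5, 46.2 and 35.8 in Nedd4L-cKO and 32.5, 49.3 and 78.1 in WT, so the estimate rested on WT replicate 3. It was -0.09 without that library and -0.76 without WT replicate 1. The Bmp7 promoter followed with 66.8, 75.8, 70.8 and 83.7 against 82.8, 79.3 and 81.3, a difference of -0.25 ± 0.183. The Bmp6 region at 94.51 kb differed by -0.22 ± 0.201, and by -0.11 without Nedd4L-cKO replicate 4 or -0.34 without replicate 3. The Chrdl2 region at 5.897 kb had a larger estimate with a larger error (-0.27 ± 0.308), as did a Bmp6 region at 116.3 kb (-0.24 ± 0.429). None of these 5 had an unadjusted p under 0.15 by limma. The Chrdl2 promoter differed by -0.23 ± 0.247 by fold and -0.07 ± 0.102 by pileup, with unadjusted p-values of 0.378 and 0.485 and adjusted p-values of 1.0 by limma. Its fold difference was -0.06 without WT replicate 1, -0.11 without Nedd4L-cKO replicate 2, -0.41 without Nedd4L-cKO replicate 1 and -0.35 without WT replicate 3. The Chrdl2 locus did not lean 1 way. Of its 7 shared regions, 3 had a higher estimate in Nedd4L-cKO by fold and 6 by pileup. Among them were the regions at 3.904 kb (0.24 ± 0.244 by fold) and 8.002 kb (0.20 ± 0.186 by fold).

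**Figure D4:**
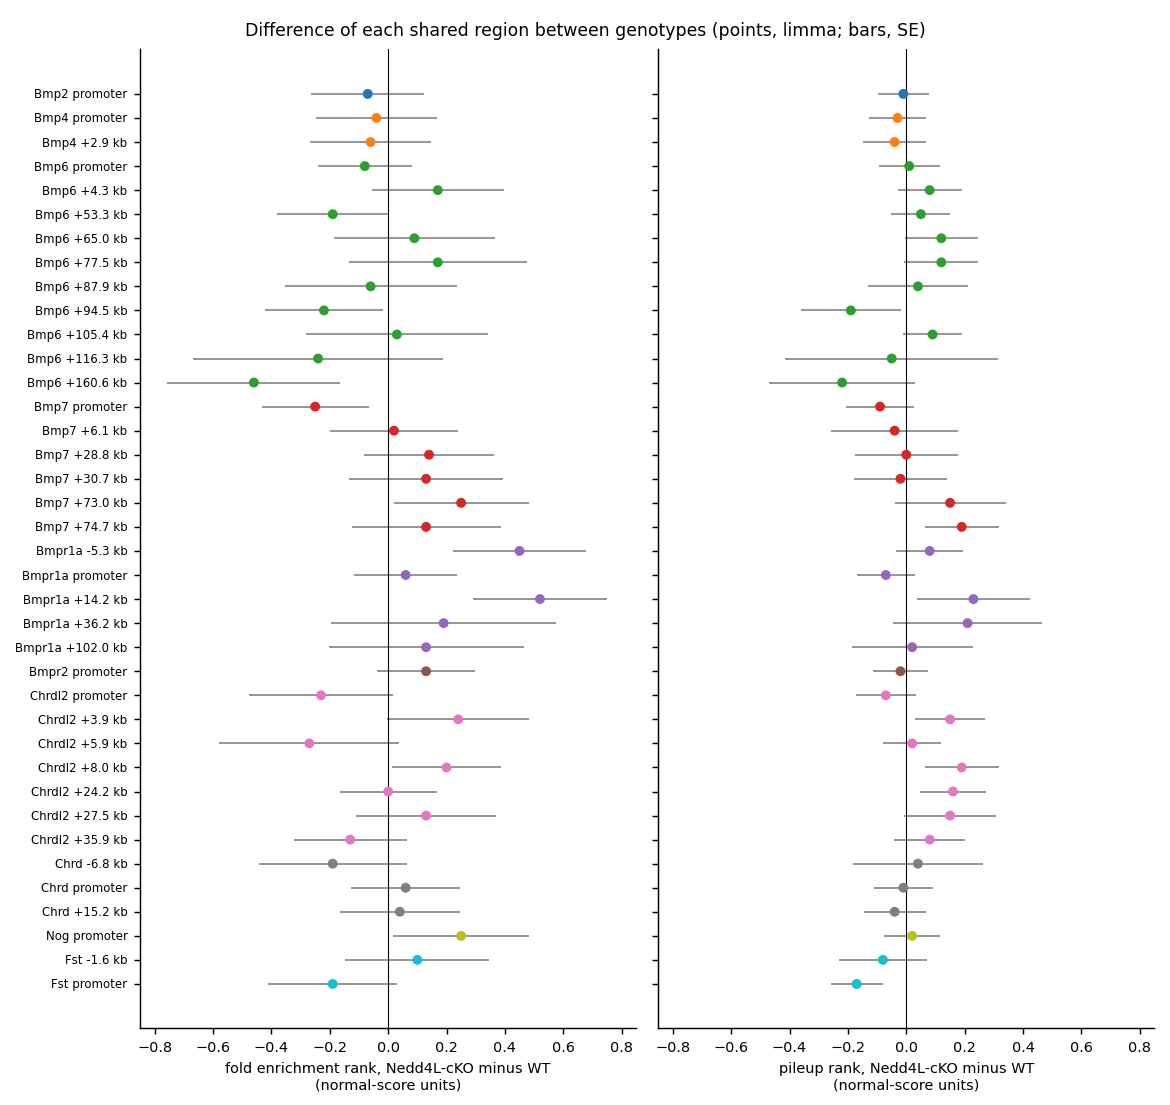
Difference between genotypes (Nedd4L-cKO minus WT, normal-score units) in fold rank (left) and pileup rank (right) for the 38 shared regions, named by gene and distance of the centre from the start, with points for limma estimates and bars for the SE. The estimates run from -0.46 to 0.52 by fold and from -0.22 to 0.23 by pileup, on both sides of 0.

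Calls separated no region. Of the 73 regions, 0 were called in every library of 1 genotype and in none of the other, where 0.151% of all regions were. The length under peaks was compared locus by locus with a two-sided exact permutation test over the 35 splits of 7 libraries into 4 and 3, which cannot give a p below 0.0286. At 1 of the 10 loci, Bmp7, the genotypes did not overlap, against 3.53% of the 17309 loci with a peak. Peaks covered 5.6, 6.17, 5.70 and 5.91 kb there in Nedd4L-cKO and 5.56, 5.00 and 5.48 kb in WT. The means were 5.84 ± 0.252 (SD, n = 4) and 5.35 ± 0.303 kb (SD, n = 3), with an exact p of 0.0571 and an adjusted p of 1.0 over all genes. The lowest Nedd4L-cKO value thus exceeded the highest WT value by less than the SD within either group. As a share of all bases under peaks in the library, the Bmp7 values of the genotypes overlapped. They also overlapped with equal peak numbers, with broad peaks holding a narrow peak and with 50 kb on each side. With a -log10 q of at least 5 the difference at Bmp7 changed its sign. At that limit the genotypes again did not overlap at 1 of the 10 loci, and which locus that was is not given here.

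At the other 9 loci the genotypes overlapped, with exact p-values from 0.143 (Bmp6) to 0.971 (Nog). Bmp6 peaks covered 14.8, 14.4, 11.8 and 14.8 kb in Nedd4L-cKO and 12.4, 12.7 and 12.5 kb in WT. Bmpr1a peaks covered 7.85, 7.64, 4.75 and 9.12 kb against 6.97, 6.92 and 6.82 kb. At both loci Nedd4L-cKO replicate 3 alone lay below the WT libraries. Without it, the groups did not overlap at 3 of the 10 loci (Bmp6, Bmp7 and Bmpr1a), against 7.43% of all loci. At Bmp6 and Bmpr1a that follows from leaving out the only low library. Whether the count differs from the share over all loci was not tested. Without WT replicate 1 the groups did not overlap at 2 of the 10 (Bmp4 and Bmp7), against 9.31% of all loci. Leaving out any other library gave 1 of the 10.

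**Figure D5:**
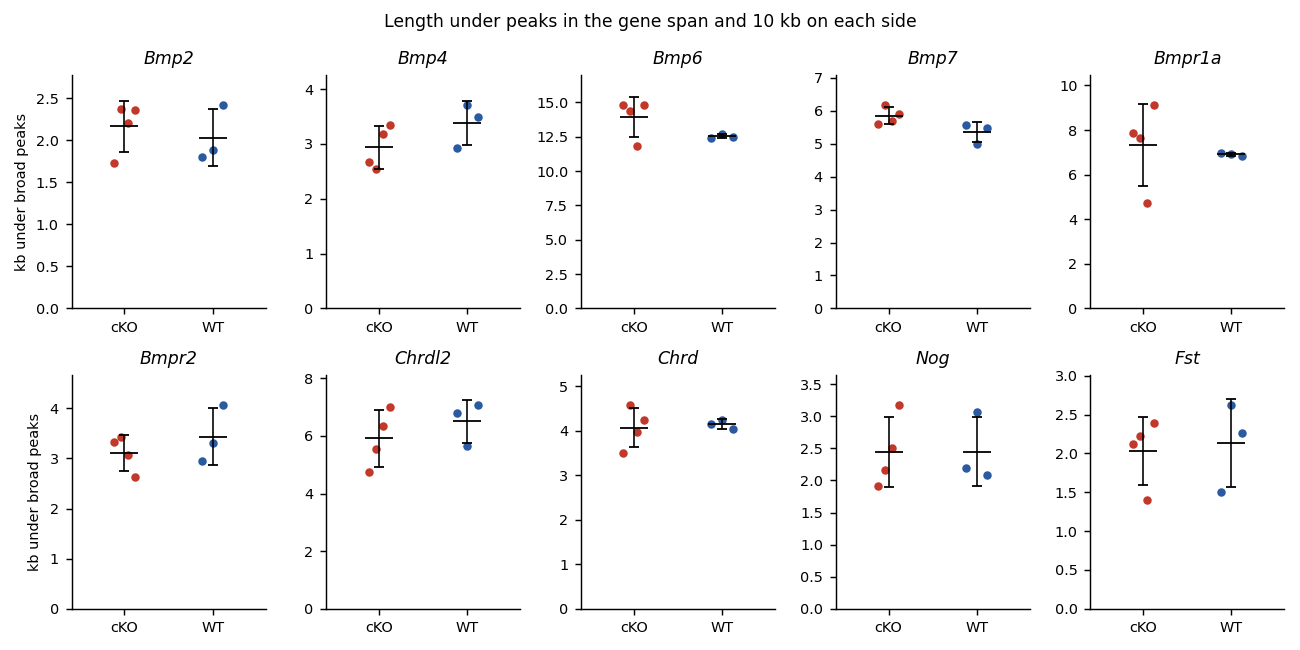
Length in kb under broad peaks in the gene span and 10 kb on each side, with a point per library, the mean as a line and the SD as an error bar, for 4 Nedd4L-cKO (cKO) and 3 WT libraries. Only the points of Bmp7 do not overlap between genotypes, and the Bmp6 and Bmpr1a panels each show a single low Nedd4L-cKO library.

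Around these 10 genes, 40 further genes of the pathway were read at their promoters. All 10 receptors and co-receptors, among them Acvr1 and Bambi, the 4 SMAD genes and the 4 Id genes held a promoter peak in all 7 libraries. Of 10 ligands, 3 did (Bmp8a, Gdf6 and Gdf7), 3 were called in some libraries (Bmp3 in 6, Bmp8b in 4 and Gdf5 in 1) and 4 in none. Of 12 antagonists and modulators, 8 were called in all libraries, 2 in some (Sostdc1 in 4 and Cer1 in 1) and 2 in none. Hence 29 of the 40 were called in all 7 libraries. None of these 29 promoters passed the adjusted threshold of limma by fold or by pileup. At an unadjusted p under 0.05, 2 of the 29 passed by fold (3.98% of all regions), the receptors Bmpr1b and Acvrl1, and 0 by pileup (2.71% of all regions). Bmpr1b differed by 0.60 (unadjusted p = 0.0499, adjusted p = 1.0 by limma) and Acvrl1 by 0.54 (unadjusted p = 0.0117, adjusted p = 1.0 by limma). The covered lengths of the genotypes did not overlap at 2 of the 40 loci, Eng and Id3, against 3.53% of all loci.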

How the data were processed

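Groups are the genotypes in the labels, and replicate numbers come from the sample titles. Each of the 7 libraries is from its own mouse per the study. Per the study's methods and the submitters' processing notes, the authors trimmed reads with Trimmomatic 0.39, aligned pairs to mm10 with BWA 0.7.17, filtered on mapping quality with SAMtools, removed duplicates with Picard 2.26.3 and called peaks in each library with MACS2 2.2.7.1. Per the file headers, broad peaks were called without a control, with single ends of 151 bp shifted by -100 bp and extended to 200 bp, and a q-value of 0.1 for broad and 0.05 for narrow peaks. The deposited pileup is a signal (mean coverage of a peak), the deposited fold enrichment is a ratio to the local background, and the deposited p-values and q-values are given as −log10. The gapped lists deposited by the authors marked narrow peaks inside broad ones.

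Peaks on the 19 autosomes, X and Y were merged at an overlap of 1 bp or more. Gene spans came from RefSeq on GRCm38, and the start of a gene is the outer end of its span. Strands came from RefSeq or, failing that, GENCODE by symbol, for 98.0% of 21883 protein-coding genes. Exons and introns were not told apart, and no list of artifact-prone regions was used here. The moderated test of limma 3.58.1 in R 4.3.3 was run on normal scores of within-library ranks, with Benjamini-Hochberg adjustment over all shared regions. The code was also run on simulated data with shifts far larger than the estimates above. That run does not show whether differences of the size seen here could be found. Exact permutation tests on covered length were adjusted over all genes. Python 3.11.15 with numpy 2.4.6, pandas 2.3.3 and matplotlib 3.10.9 was used.

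The 10 genes, the 40 further pathway genes, the markers and the motifs were chosen with earlier results of these data known. All 10 genes are named. Of their regions, the text names the promoter, the highest outside it by fold and by pileup, and the 3 lowest p-values in each direction, and any further region was chosen after its values were seen. Alternatives were a -log10 q of at least 5, equal peak numbers, broad peaks holding a narrow peak, other widths of locus and promoter, a length-weighted mean, the trend and robust options of limma, a replicate block and leaving out each library. Starts from the promoter table, covered length as a share of the library and the repeats of the low-fold count were added after seeing the data.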

Additional observations from a re-analysis of the deposited data

Results flagged for a closer look

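In the 4 Nedd4L-cKO libraries, 40 sets of values (fold percentile, pileup percentile and peak length of each promoter, and length covered at each locus) were searched for a single library far from the others by Dixon's ratio, and 3 exceeded the 95% critical value, where chance gives about 1 in 20. The Bmp4 promoter peak was 486 bp long in replicate 2 against 982 to 1040 bp in the others (ratio 0.895), while the WT lengths were 762, 974 and 610 bp. Peaks covered 11.8 kb at Bmp6 in replicate 3 against 14.4 to 14.8 kb (ratio 0.867), and this library also covered the least at Bmpr1a (4.75 kb) and Fst (1.40 kb). The Chrdl2 promoter had a fold percentile of 14.3 in replicate 1 against 1.70 to 3.62 (ratio 0.848), and WT replicate 1 had 13.5 there. The WT group of 3 was too small for this search.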

How the results depend on the processing

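The counts of regions past the adjusted limma threshold and of regions separated by calls stayed at 0 under every alternative tried. The promoters of all 10 genes were called in all libraries under each except a -log10 q of at least 5, where 4 were (Bmp2, Bmpr1a, Bmpr2 and Chrd). Without the share of all promoters at that limit, these 4 cannot be called few or many. The count of loci whose covered lengths do not overlap, 1 at first, was 0 with equal peak numbers and with broad peaks holding a narrow peak. It was also 0 with 50 kb on each side and as a share of the library's covered bases. It stayed at 1 with a -log10 q of at least 5 and for the span alone, and was 1 to 3 when a library was left out. Replicate numbers did not pair the libraries (deviations of same-numbered libraries correlated between -0.123 and 0.033 by fold and between -0.241 and 0.0978 by pileup). A replicate block left both limma counts at 0 and gave 3 loci with all 3 paired differences of 1 sign, where 22.1% of all loci have that. The 9 regions of low fold and high pileup were 8 or 9 without any library. Of 440 alternatives for single regions and loci, 38 changed the sign of a difference that had passed no threshold, 30 of them by leaving out a library. These ranged from -0.17 to 0.03 (fold) and -0.05 to 0.02 (pileup) at the Bmp2 promoter, from -0.24 to 0.11 and -0.10 to 0.03 at Bmp4, from 0.00 to 0.12 by fold at Bmpr1a and from -0.02 to 0.16 and -0.09 to 0.06 at Chrd, and by pileup from -0.06 to 0.05 at Bmp6, -0.07 to 0.02 at Bmpr2 and -0.03 to 0.05 at Nog. Covered length ranged from -0.159 to 1.30 kb at Bmpr1a, -0.241 to 0.113 kb at Chrd, -0.254 to 0.297 kb at Nog and -0.399 to 0.155 kb at Fst. Otherwise signs changed for the Chrd promoter by pileup (0.00 with the -log10 q limit, 0.01 with the replicate block) and for covered length at Bmp7 (-0.493 kb with the -log10 q limit), Bmpr2 (0.293 kb with narrow peaks), Chrd (0.0346 kb for the span alone, 0.775 kb with 50 kb) and Fst (0.144 kb with narrow peaks, 0.0318 kb with 50 kb), and the cause was not tested. For 18 pairs of a region and an alternative, 16 of them with the -log10 q limit, no value could be had because the region was then not called in all libraries. With 4 and 3 libraries the exact test cannot give a p below 0.0286. What depth adds to the calling of weak regions was not tested.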
